A study of Mus musculus with 16 samples.

Results

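AFT024 and BFC012 are stromal lines that were derived from the fetal liver of C57BL/6 mice at 14.5 days post coitum (dpc), and this comparison sets the polyA RNA of AFT024 cells against that of BFC012 cells. AFT024 is labelled supportive, and BFC012 non-supportive, of blood stem and progenitor cells (HSPC). The samples were chosen by their labels alone and are 4 of the 16 samples of the series, 2 labelled samples for each line. The series also holds the exosomes (small secreted vesicles) of both lines and their small RNA. RNA was extracted with Trizol, and polyA RNA was captured on oligo-dT beads and made into TruSeq libraries. The deposited tables hold 1 merged column for each line, so every difference below is between 1 value and 1 value, with no replicate spread, no SD and no test. No source used here says that the 2 cell samples of a line came from separate cultures. There is 1 line of each kind, so a difference between the lines cannot be told apart from a difference between supportive and non-supportive stroma.

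During fetal life the liver is the main site where HSPC expand, and stromal cells around them supply membrane-bound and secreted factors, matrix and adhesion ligands. Stromal cells of different places in the body keep records of their origin in their transcription factors, above all in the Hox genes, whose clustered homeobox proteins mark position along the body axis. The fetal liver is covered by mesothelium, a sheet of epithelial-like cells of mesodermal origin that expresses Wt1, Upk3b, Upk1b and Gpm6a and that can give rise to mesenchymal cells within the organ.

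The 2 merged columns held 39385534 reads for AFT024 cells and 35874383 reads for BFC012 cells. Reads are given whole or as RPM, a gene's reads for every 1000000 reads of its column. Ratios are AFT024 over BFC012 after scaling by a size factor of 1.07, with an exact 95% interval that covers counting error only. A line with 0 reads was set to a floor of 3 reads, which is 0.0762 RPM in AFT024 cells against 0.0836 RPM in BFC012 cells. A fold given at the floor is not a bound, since its 95% interval reaches closer to equal levels. FPKM (fragments per kilobase of transcript, scaled to depth) are the authors' deposited values and are used wherever levels of different genes are set side by side.

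Of 43626 genes, 12508 had at least 1 RPM in at least 1 line and were kept, and 80.7% of these lay within 2-fold between the lines. AFT024 cells were at least 2-fold higher for 1369 kept genes (10.9%) and at least 2-fold lower for 1051 (8.4%), together 19.3%. These shares are the background for every count below, where "higher" and "lower" mean a difference of at least 2-fold in AFT024 cells. At 16-fold the counts were 344 higher and 227 lower, and at 100-fold 93 higher and 59 lower. The genes that were higher took 8.04% of all reads in AFT024 cells against 2.45% in BFC012 cells. The genes that were lower took 1.23% of reads in AFT024 cells against 4.71% in BFC012 cells. A gene under 0.5 RPM in one line could be kept only through the other line and so had to differ. Among the 11255 genes with at least 1 RPM in both lines, 7.19% were higher and 5.06% were lower.

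The cell type markers matched a stromal label in both lines. The 10 stromal and fibroblast markers summed to 9259 RPM in AFT024 cells against 7513 RPM in BFC012 cells. Most of this was Fn1 and Vim, at 4003 and 2591 RPM in AFT024 cells against 5142 and 1580 RPM in BFC012 cells. Of the 8 kept markers, 4 were higher in AFT024 cells, collagen genes among them, and 1 was lower. Thy1 had 1 read in AFT024 and 0 in BFC012, and Lum had 0 in AFT024 and 3 in BFC012. Smooth muscle markers, led by Acta2, summed to 1471 RPM in AFT024 cells against 1701 RPM in BFC012 cells. The 6 stellate cell markers summed to only 3.43 RPM in AFT024 cells against 2.43 RPM in BFC012 cells, with Lrat at 0 reads in both. None of 7 endothelial markers reached 1 RPM in either line. The leukocyte gene Ptprc had 1 read in AFT024 cells against 2 in BFC012 cells, and the hepatocyte gene Alb 0 in AFT024 and 1 in BFC012. Cd34, which marks stem cells but also fibroblasts, had 110 RPM in AFT024 cells against 121 RPM in BFC012 cells, while Kit had 0 reads in both.

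A wide contrast among the marker lists was mesothelial. Of 11 mesothelial markers, 9 were kept, 8 of them lower in AFT024 cells and 1, Msln, higher. The list summed to 109 RPM in AFT024 cells against 805 RPM in BFC012 cells. Upk3b, Wt1, Upk1b, Gpm6a, Krt19 and Lrrn4 were under 0.5 RPM in AFT024 cells. They were kept only through BFC012 cells and had to be lower. Only Podxl, Bnc1 and Msln had at least 1 RPM in both lines. Wt1, the zinc-finger factor of mesothelium and kidney, had 0 reads in AFT024 cells against 1226 in BFC012 cells, 437-fold lower at the floor. Bnc1, a basonuclin zinc-finger protein, had 5.81 RPM in AFT024 cells against 94.4 RPM in BFC012 cells. Podxl, the sialomucin podocalyxin, had 7.72 RPM in AFT024 cells against 45.1 RPM in BFC012 cells. Msln, mesothelin, went the other way, with 93.9 RPM in AFT024 cells against 40.9 RPM in BFC012 cells. In a longer list of 35 mesothelial and urothelial genes, 24 were kept, 2 higher and 19 lower, with a median log2 ratio of −4.61. Among the 12 of these with at least 1 RPM in both lines, 2 were higher and 7 lower. The longer list's other higher member was Efemp1, the elastic-fibre associated glycoprotein fibulin-3, with 299 RPM in AFT024 cells against 12.0 RPM in BFC012 cells. The 7 epithelial markers summed to 2.64 RPM in AFT024 cells, mostly Krt7, against 27.9 RPM in BFC012 cells, mostly Cdh1. Krt7 had 2.36 RPM in AFT024 and 4.93 RPM in BFC012, and Cdh1 0.0762 RPM in AFT024 and 21.1 RPM in BFC012. Cldn3 and Cldn4 had 0 reads in both lines, and Epcam had 4 in AFT024 and 0 in BFC012. The 8 hepatoblast and hepatocyte markers summed to 0.381 RPM in AFT024 and 33.8 RPM in BFC012, almost all of it Foxa2 and Trf. In bulk RNA, fewer cells of a type and less RNA per cell cannot be told apart.

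The genes at the far end of higher expression in AFT024 cells were close to absent from BFC012 cells. The 15 genes with the highest ratios had up to 43076 reads in AFT024 cells against 1 to 24 reads in BFC012 cells, and 9 of them had at most 3 reads in BFC012 cells. Lrrc32 encodes GARP, a cell-surface anchor for latent TGF-beta, and had 5153 reads in AFT024 cells against 1 read in BFC012 cells, a ratio of 4820.4 (95% interval 865 to 190432). Slc5a7, the high-affinity choline transporter best known from cholinergic neurons, had 3025 reads in AFT024 cells against 1 in BFC012 cells, a ratio of 2829.7 (508 to 111806). The 1 read in BFC012 cells leaves both ratios loosely bounded, and both genes were near absent there.

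Surface proteins and intracellular regulators stood at the same end. Cspg4, the NG2 proteoglycan of pericytes and progenitors, had 1328 reads in AFT024 cells against 1 in BFC012 cells. Pcdh7, a protocadherin, had 1991 reads in AFT024 cells against 1 in BFC012 cells, and Pkia, an inhibitor of protein kinase A, 2850 in AFT024 and 2 in BFC012. Each was near absent from BFC012 cells. Dlk1, Ctsz, Smoc2, Peg10, Aqp1, Hoxc8, Sgce and Xist were also at this end.

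Sgce, epsilon-sarcoglycan, and Peg10, a retrotransposon-derived placental gene, are paternally expressed neighbours on chromosome 6. In the mouse annotation of build GRCm38, Sgce spans positions 4674350 to 4747207 and Peg10 spans 4747306 to 4760517. Sgce had 2516 reads in AFT024 cells against 1 in BFC012 cells, and Peg10 had 13596 in AFT024 and 9 in BFC012. Both neighbours were therefore on the same side.

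**Figure D1:**
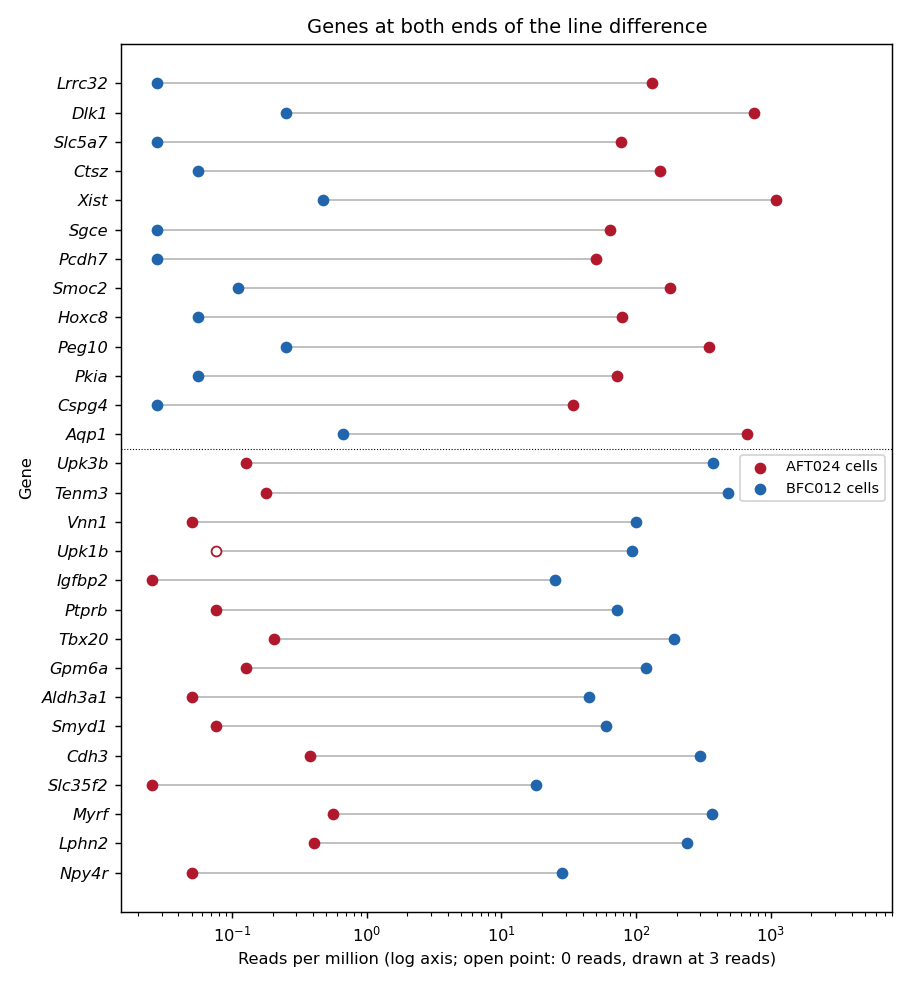
RPM (log axis) of 13 of the genes with the highest and 15 with the lowest AFT024 over BFC012 ratios, 1 point per line and gene (AFT024 red, BFC012 blue, an open point for 0 reads drawn at 3 reads). Each gene of the upper block stands at 33.7 RPM or more in AFT024 cells and under 1 RPM in BFC012 cells, and each gene of the lower block stands under 1 RPM in AFT024 cells and at 17.98 RPM or more in BFC012 cells.

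At the opposite end the 15 genes had 0 to 22 reads in AFT024 cells against 645 to 17349 in BFC012 cells, and 8 of them had at most 3 reads in AFT024 cells. Tbx20, a T-box factor of heart and mesoderm, had 8 reads in AFT024 cells against 6863 in BFC012 cells, a ratio of 0.00109 (4.71e-04 to 0.00215), with 0.0460 FPKM in AFT024 and 24.7 FPKM in BFC012. Smyd1, a histone methyltransferase known from heart and skeletal muscle, had 3 reads in AFT024 cells against 2159 in BFC012 cells, a ratio of 0.00130 (2.68e-04 to 0.00380). Genes best known from heart thus stood among mesothelial and urothelial ones at this end.

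Enzymes and receptors shared it. Aldh3a1, an aldehyde dehydrogenase known from cornea, had 2 reads in AFT024 cells against 1607 in BFC012 cells. Ptprb, the receptor phosphatase VE-PTP of endothelium, had 3 in AFT024 and 2598 in BFC012, although the endothelial markers were near 0 in both lines. Igfbp2, an insulin-like growth factor binding protein, had 1 in AFT024 and 895 in BFC012, and Npy4r, the pancreatic polypeptide receptor, had 2 in AFT024 and 1014 in BFC012. Each of these genes was close to undetected in AFT024 cells. Slc35f2, a solute carrier, had 1 read in AFT024 cells against 645 in BFC012 cells. Upk3b, Tenm3, Vnn1, Upk1b, Gpm6a, Cdh3, Myrf and Lphn2 made up the rest. All 15 genes of each end also differed at least 2-fold the same way in the exosomes of the lines.

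Promoter sequence is shown for a pair of genes from each end, since all 4 were near absent in one line and clearly read in the other. Each window runs from 250 bases before to 50 after the gene's start (RefSeq, build GRCm38.p6, 5′ to 3′ on the gene's strand), with each CG dinucleotide in capitals. The windows are chr12:109452573-109452872 on the plus strand for Dlk1, chr17:54298985-54299284 on the minus strand for Slc5a7, chr5:136038246-136038545 on the plus strand for Upk3b and chr9:24774254-24774553 on the minus strand for Tbx20. A window was at hand for 15 of the 30 genes.
Dlk1: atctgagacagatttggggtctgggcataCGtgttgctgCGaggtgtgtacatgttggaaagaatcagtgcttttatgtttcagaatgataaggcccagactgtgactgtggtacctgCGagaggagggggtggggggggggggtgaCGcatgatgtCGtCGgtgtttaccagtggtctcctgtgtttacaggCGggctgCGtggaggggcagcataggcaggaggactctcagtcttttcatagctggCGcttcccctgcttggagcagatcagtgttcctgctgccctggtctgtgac
Slc5a7: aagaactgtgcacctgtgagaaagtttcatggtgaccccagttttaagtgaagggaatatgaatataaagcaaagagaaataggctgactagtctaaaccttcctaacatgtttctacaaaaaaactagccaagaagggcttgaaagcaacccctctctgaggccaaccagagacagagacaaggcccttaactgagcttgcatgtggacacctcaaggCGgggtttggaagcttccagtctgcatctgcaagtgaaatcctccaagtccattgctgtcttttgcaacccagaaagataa
Upk3b: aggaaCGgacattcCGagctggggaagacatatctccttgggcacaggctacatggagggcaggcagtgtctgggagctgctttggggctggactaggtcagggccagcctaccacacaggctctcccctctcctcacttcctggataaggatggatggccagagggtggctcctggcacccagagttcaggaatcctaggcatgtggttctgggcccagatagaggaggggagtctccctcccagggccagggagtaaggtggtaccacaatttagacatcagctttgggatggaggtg
Tbx20: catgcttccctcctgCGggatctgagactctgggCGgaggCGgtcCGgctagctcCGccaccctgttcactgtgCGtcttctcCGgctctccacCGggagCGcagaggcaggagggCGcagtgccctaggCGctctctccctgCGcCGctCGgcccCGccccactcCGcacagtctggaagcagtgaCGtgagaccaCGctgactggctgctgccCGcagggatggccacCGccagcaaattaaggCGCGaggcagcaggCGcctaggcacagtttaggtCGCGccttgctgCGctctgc
The Dlk1 window held 9 CG, the Slc5a7 window 1, the Upk3b window 2 and the Tbx20 window 26. Over 32851 windows of this length the median was 7, 94.6% held at least 1 CG, 31.4% held 3 or fewer and 16.9% held 26 or more. The genes shown therefore covered both sparse and dense windows at the lower end of the ratio. The letters TATAAA, searched on both strands, were found in the Slc5a7 window and in 13.6% of all windows.

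The Hox genes split by cluster. HoxC, on chromosome 15, was read in AFT024 cells and close to silent in BFC012 cells, HoxA, on chromosome 6, was the reverse, HoxB, on chromosome 11, was shared for most of its length, and HoxD, on chromosome 2, was silent in both. Summed over its genes, HoxC had 189 RPM in AFT024 cells against 8.39 RPM in BFC012 cells. HoxA had 24.4 RPM in AFT024 cells against 276 RPM in BFC012 cells, and HoxB had 65.3 RPM in AFT024 and 116 RPM in BFC012. Of all 39 Hox genes, 27 were kept, 8 higher and 12 lower. Among the 16 with at least 1 RPM in both lines, 1 was higher and 8 lower.

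All 8 kept HoxC genes were higher in AFT024 cells. All but Hoxc13 were under 1 RPM in BFC012 cells and so were kept only through AFT024 cells. Of those, all but Hoxc9 were under 0.5 RPM in BFC012 cells and had to be higher. Hoxc8, at thoracic levels a regulator of the skeleton and of motor neurons, had 3086 reads in AFT024 cells against 2 in BFC012 cells, a ratio of 1443 (399 to 11924), with 35.7 FPKM in AFT024 and 0.0968 FPKM in BFC012. Hoxc6 had 1516 reads in AFT024 cells against 17 in BFC012 cells, Hoxc4 had 584 in AFT024 and 12 in BFC012, and Hoxc9 had 546 in AFT024 and 32 in BFC012. The narrowest gap of the cluster was at its posterior end, where Hoxc13 had 27.7 RPM in AFT024 cells against 6.33 RPM in BFC012 cells, a ratio of 4.49. Hoxc12 had 28 reads in AFT024 cells against 0 in BFC012 cells and was not kept.

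In HoxA, 9 of 10 kept genes were lower in AFT024 cells, and Hoxa4 alone stayed within 2-fold, at 3.43 RPM in AFT024 cells against 5.21 RPM in BFC012 cells. Hoxa11, a limb and uterus patterning gene, had 0 reads in AFT024 cells against 1495 in BFC012 cells, 533-fold lower at the floor. Its antisense transcript Hoxa11os had 0 reads in AFT024 cells against 207 in BFC012 cells. Reads of a gene and its antisense partner cannot be told apart where the library kit does not mark strand, and the same holds for overlapping transcripts inside the clusters. Hoxa10 had 4.54 RPM in AFT024 cells against 80.9 RPM in BFC012 cells, Hoxa9 had 4.04 in AFT024 and 53.2 in BFC012, and Hoxa7 had 1.32 in AFT024 and 27.6 in BFC012. The gap was thus wide in these genes, and also for Hoxa2, at 0.432 RPM in AFT024 cells against 18.7 RPM in BFC012 cells.

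HoxB was mixed. Hoxb2 to Hoxb6 and Hoxb8 lay within 2-fold, with Hoxb3 at 17.4 RPM in AFT024 cells against 16.7 RPM in BFC012 cells. Hoxb7 was the exception in the middle of the cluster, with 2 reads in AFT024 cells against 363 in BFC012 cells, a ratio of 0.00515 (6.22e-04 to 0.0188). Hoxb9 had 9.04 RPM in AFT024 cells against 47.6 RPM in BFC012 cells, and Hoxb13 had 0.736 in AFT024 and 5.80 in BFC012. The 9 HoxD genes had 0 reads in both lines and so stood at the floor of 3 reads. Their neighbours Lnp (2450 reads in AFT024 cells, 2146 in BFC012 cells) and Mtx2 (3017 reads in AFT024, 3198 in BFC012) were read in both. In exosomes, HoxC summed to 48.9 RPM for AFT024 and 3.12 RPM for BFC012, and HoxA to 17.5 RPM in AFT024 and 178 RPM in BFC012.

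**Figure D2:**
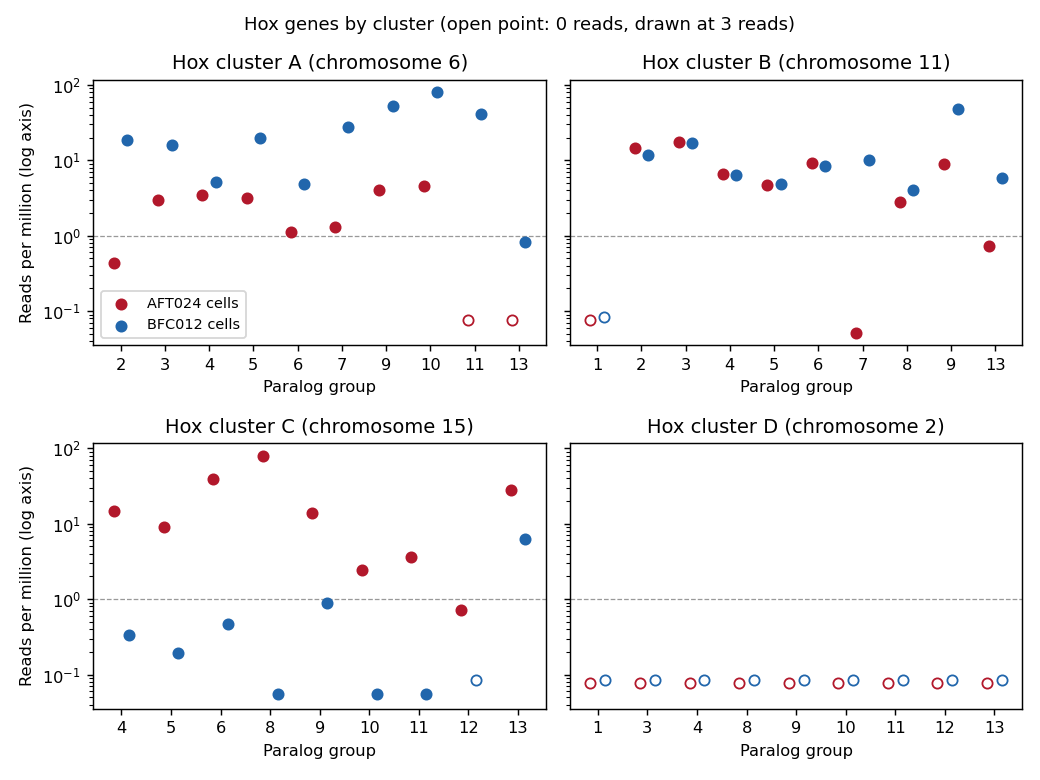
RPM of 38 Hox genes in AFT024 cells and BFC012 cells by cluster and paralogue group, 1 merged value per line (log axis). HoxC stands at 189 RPM in sum in AFT024 cells against 8.39 RPM in BFC012 cells, HoxA at 24.4 against 276, and HoxD has 0 reads in both.

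MicroRNAs that lie inside the Hox clusters gave a further readout, from the small RNA libraries of the same lines. The mature sequences (RefSeq, build GRCm38.p6, 5′ to 3′, seed bases 2 to 8 in capitals) are given because the families with 1 seed come from different clusters.
mmu-miR-615-3p: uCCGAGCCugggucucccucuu
mmu-miR-196a-5p: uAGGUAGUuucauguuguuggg
mmu-miR-196b-5p: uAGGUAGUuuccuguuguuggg
mmu-miR-10a-5p: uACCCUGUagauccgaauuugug
mmu-miR-10b-5p: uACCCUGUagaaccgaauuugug
The miR-196a and miR-196b sequences share the seed AGGUAGU and differ by A12C, and miR-10a and miR-10b share ACCCUGU and differ by U12A (positions counted from the 5′ end). miR-615-3p, at chr15:103014969-103014990 in HoxC, had 14668 reads in AFT024 cells against 448 in BFC012 cells, a ratio of 33.3 (30.3 to 36.7). miR-196b-5p, in HoxA, had 1084 reads in AFT024 cells against 49507 in BFC012 cells, a ratio of 0.0223 (0.0210 to 0.0237). Each of these was on the side of the protein-coding genes of its cluster.

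miR-196a-5p can arise from HoxB (Mir196a-1) and HoxC (Mir196a-2), and the mature arm is identical, so its reads cannot be told apart. The other arms can be. The 3p arm of Mir196a-1 had 0 reads in AFT024 cells against 571 in BFC012 cells, 187-fold lower at the floor. The 3p arm of Mir196a-2 had 7.86 RPM in AFT024 and 2.34 RPM in BFC012, a ratio of 3.38. miR-10a-5p, in HoxB, had 424829 reads in AFT024 cells against 835067 in BFC012 cells, a ratio of 0.518. miR-10b-5p, in HoxD, had 646 reads in AFT024 cells against 331 in BFC012 cells, although no HoxD gene had a polyA read, and it differs by 1 base from the far more abundant miR-10a.

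The imprinted Dlk1-Dio3 region on chromosome 12 also had readouts in both kinds of library. Meg3, its maternally expressed noncoding RNA, had 394 polyA reads in AFT024 cells against 0 in BFC012 cells, 123-fold higher at the floor. Only a chosen set of the region's microRNAs was looked at. The sequences of those read most in this set are shown with the seed in capitals.
mmu-miR-127-3p: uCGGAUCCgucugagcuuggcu
mmu-miR-434-3p: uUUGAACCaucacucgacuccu
mmu-miR-411-5p: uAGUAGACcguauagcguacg
miR-127-3p, at chr12:109592888-109592909, had 8639 reads in AFT024 cells against 164 in BFC012 cells, a ratio of 53.6 (45.9 to 63.0). miR-434-3p had 6002 reads in AFT024 and 21 reads in BFC012, and miR-411-5p had 7870 in AFT024 and 95 in BFC012. Dlk1, Meg3 and the microRNAs named here were all higher in AFT024 cells. Imprinted genes went both ways: of 55 listed, Dlk1 and Sgce among them, 32 were kept, 9 higher and 9 lower, and of the 20 with at least 1 RPM in both lines 2 were higher and 4 lower. Peg3, a paternally expressed zinc-finger gene, had 0.229 RPM in AFT024 cells against 111 RPM in BFC012 cells, and Ndn, the growth suppressor necdin, had 3 reads in AFT024 cells against 813 in BFC012 cells.

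Transcription factors outside the Hox clusters also separated the lines. Of 69 homeobox genes listed, 44 were kept, 15 higher and 4 lower, so 34.1% were higher against 10.9% of all kept genes. Emx2, a urogenital and forebrain factor, had 33.3 RPM in AFT024 cells against 1.06 RPM in BFC012 cells. Hopx, a small homeodomain protein without DNA binding, had 0.838 RPM in AFT024 cells against 18.8 RPM in BFC012 cells. The mesenchymal homeobox gene Prrx1 was read about equally, at 226 RPM in AFT024 cells against 183 RPM in BFC012 cells.

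Of 48 T-box, GATA, forkhead, Sox and Runx genes, 32 were kept, 13 higher and 7 lower. Foxd1, a factor of kidney stroma, had 944 reads in AFT024 cells against 0 in BFC012 cells, 294-fold higher at the floor. Foxc2, a factor of mesenchyme and lymphatic vessels, had 845 in AFT024 and 0 in BFC012, 263-fold higher at the floor. Foxa2, a pioneer factor of endoderm, had 4 reads in AFT024 cells against 976 in BFC012 cells. Gata4 and Gata6, chosen after their values were seen, are mesodermal and endodermal factors and were lower too: Gata4 had 22.01 RPM in AFT024 cells against 102 RPM in BFC012 cells, and Gata6 had 10.1 RPM in AFT024 and 133 RPM in BFC012. Among the 21 genes of the list with at least 1 RPM in both lines, 5 were higher and 4 lower.

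The early B-cell factors, which also act in adipose and stromal progenitors, stood out among 46 kept bHLH, Snail and other mesenchymal factors, of which 7 were higher and 11 lower. Ebf1 had 1985 reads in AFT024 cells against 0 in BFC012 cells, 619-fold higher at the floor. Ebf3 had 53.9 RPM in AFT024 cells against 0.251 RPM in BFC012 cells. Ebf2 was chosen after its values were seen and had 9.14 RPM in AFT024 cells against 4.24 RPM in BFC012 cells, a ratio of 2.22. All 3 were on the same side, by very different amounts. Nuclear receptors had 22 kept of 35, 8 higher and 2 lower. Rorb, an orphan receptor, had 2.49 RPM in AFT024 cells against 0.139 RPM in BFC012 cells, while the glucocorticoid receptor Nr3c1 had 112 RPM in AFT024 cells against 149 RPM in BFC012 cells.

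**Figure D3:**
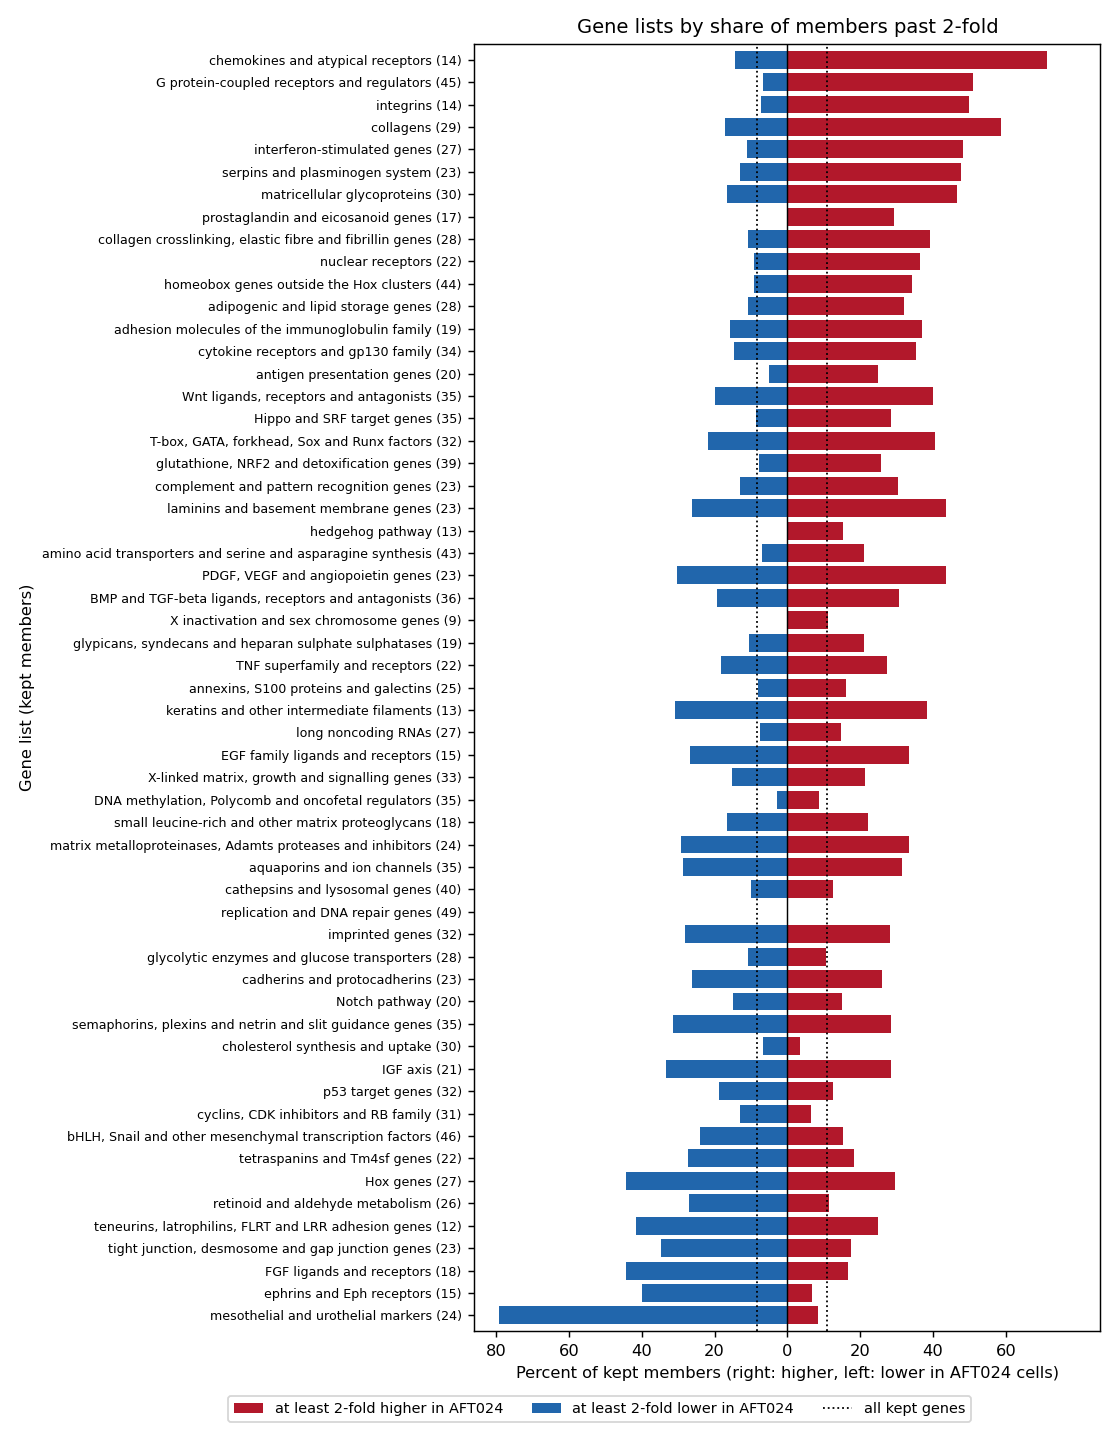
Percent of each gene list's kept members (number in brackets) that were at least 2-fold higher (right) or lower (left) in AFT024 cells than in BFC012 cells, 1 merged value per line. Dotted lines mark all kept genes at 10.9% and 8.4%, and among kept members chemokines stand at 71.4% to the right and mesothelial and urothelial markers at 79.2% to the left. Among members with at least 1 RPM in both lines these shares are 57.1% and 58.3%, and collagens are at 62.5% to the right.

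Matrix genes were on the whole more often higher in AFT024 cells. Among collagens 29 of 44 were kept, 17 higher and 5 lower, with a median log2 ratio of 1.20, and among the 16 with at least 1 RPM in both lines 10 were higher and 0 lower. Matricellular glycoproteins had 30 kept, 14 higher and 5 lower. Tgfbi, a TGF-beta induced integrin ligand, had 98.8 RPM in AFT024 cells against 0.112 RPM in BFC012 cells. Fn1, fibronectin, differed little, at 4003 RPM in AFT024 cells against 5142 RPM in BFC012 cells, and Thbs1, thrombospondin 1, had 1656 RPM in AFT024 and 3185 RPM in BFC012. The matricellular genes with the most reads therefore stayed within 2-fold.

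Basement membrane and elastic fibre genes followed a similar count. Laminin and basement membrane genes had 23 kept, 10 higher and 6 lower. Nid1, the linker nidogen 1, had 1332.5 RPM in AFT024 cells against 389 RPM in BFC012 cells, and Fras1, a matrix protein of epithelial basement membranes, had 1.14 RPM in AFT024 and 22.4 RPM in BFC012. Crosslinking, elastic fibre and fibrillin genes had 28 kept, 11 higher and 3 lower. Ltbp2, a latent TGF-beta binding family protein of microfibrils, had 107 RPM in AFT024 cells against 0.307 RPM in BFC012 cells, whereas Eln, elastin, had 1 read in AFT024 cells against 256 in BFC012 cells. Fbln5, an elastic-fibre assembly protein, had 20.2 RPM in AFT024 cells against 160.0 RPM in BFC012 cells. Elastin and fibulin-5 were thus on the opposite side from most of their list.

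Among proteoglycans, Vcan, the large hyaluronan-binding proteoglycan versican, had 370.4 RPM in AFT024 cells against 22.5 RPM in BFC012 cells. Dcn, the small leucine-rich proteoglycan decorin, had 8.61 RPM in AFT024 cells against 94.4 RPM in BFC012 cells. Sdc3, syndecan 3, had 177 RPM in AFT024 cells against 2.56 RPM in BFC012 cells, and Gpc1, glypican 1, had 109 RPM in AFT024 and 8.47 RPM in BFC012. Sulf1, which removes sulphates from heparan sulphate, had 0.965 RPM in AFT024 cells against 84.2 RPM in BFC012 cells. Sdc4, syndecan 4, stayed within 2-fold, at 234 RPM in AFT024 cells against 388 RPM in BFC012 cells. Over the list of 19 kept glypican, syndecan and sulphatase genes 4 were higher and 2 lower.

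Proteases and their inhibitors differed in kind. Metalloproteinases, Adamts proteases and their inhibitors had 24 kept, 8 higher and 7 lower, and of the 16 with at least 1 RPM in both lines 5 were higher and 2 lower. Mmp2, gelatinase A, had 15.9 RPM in AFT024 cells against 0.362 RPM in BFC012 cells, while Adamts9 had 0.279 RPM in AFT024 and 62.9 RPM in BFC012. Timp3, the matrix-bound inhibitor of metalloproteinases, had 463 RPM in AFT024 cells against 2445 RPM in BFC012 cells, a ratio of 0.195. Serpins and plasminogen genes had 23 kept, 11 higher and 3 lower, so 47.8% were higher. Serpinb2, an intracellular and secreted serpin, had 14.98 RPM in AFT024 cells against 0.0558 RPM in BFC012 cells.

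Integrins were more often higher than lower, and cadherins were equally often either. Of 27 integrin genes 14 were kept, 7 higher and 1 lower, and 4 of the 10 read in both lines were higher. Itga5, the fibronectin receptor subunit alpha 5, had 546 RPM in AFT024 cells against 70.5 RPM in BFC012 cells, whereas its partner Itgb1 had 1140.1 RPM in AFT024 and 1223 RPM in BFC012. Itga11, a collagen receptor subunit, was the lower one, at 0.127 RPM in AFT024 cells against 15.1 RPM in BFC012 cells. Itga5 and Itga11 thus differed between the lines while Itgb1 was level. Cadherins and protocadherins had 23 kept, 6 higher and 6 lower, and Fat1, a giant cadherin, had 305 RPM in AFT024 cells against 1031 RPM in BFC012 cells. Tight junction, desmosome and gap junction genes had 23 kept, 4 higher and 8 lower. Pkp1, the desmosomal plakophilin 1, had 2.23 RPM in AFT024 cells against 56.4 RPM in BFC012 cells, and Tjp1, the scaffold ZO-1, had 113 RPM in AFT024 and 276 RPM in BFC012.

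Keratins and other intermediate filaments had 13 kept of 30, 5 higher and 4 lower. Nes, the progenitor intermediate filament nestin, had 292 RPM in AFT024 cells against 20.8 RPM in BFC012 cells, a ratio of 14.4 (13.4 to 15.5). Vim, vimentin, had 2591 RPM in AFT024 cells against 1580 RPM in BFC012 cells and stayed within 2-fold. Krt14 and Krt19, epithelial keratins, had 0.0508 and 0.178 RPM in AFT024 cells against 1.76 and 2.56 RPM in BFC012 cells. Krt13, another epithelial keratin, was on the opposite side, at 3.78 RPM in AFT024 cells against 0.530 RPM in BFC012 cells. The keratins named here thus went both ways. Of the 8 listed genes with at least 1 RPM in both lines, 3 were higher and 1 lower.

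More FGF genes were lower than higher in AFT024 cells. Of 18 kept genes of 30, 3 were higher and 8 lower, 44.4% against 8.4% of all kept genes, while the list's median log2 ratio was 0.05. The receptors split: Fgfr1 had 150 RPM in AFT024 cells against 12.5 RPM in BFC012 cells, while Fgfr2, chosen after its values were seen, had 24.5 RPM in AFT024 and 135 RPM in BFC012. Dusp6, an ERK phosphatase induced by FGF signalling, had 21.3 RPM in AFT024 cells against 151 RPM in BFC012 cells, and the ligand Fgf7 was level at 164 RPM in AFT024 and 153 RPM in BFC012. Per length, AFT024 cells had 42.2 FPKM of Fgfr1 and 3.21 FPKM of Fgfr2, and BFC012 cells had 3.50 and 36.8 FPKM, so the receptor with the higher level differed between the lines.

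Other receptor tyrosine kinase ligands and receptors also sorted by line. PDGF, VEGF and angiopoietin genes had 23 kept, 10 higher and 7 lower. Vegfc, the lymphatic growth factor, had 519 reads in AFT024 cells against 0 in BFC012 cells, 162-fold higher at the floor. Hgf, hepatocyte growth factor, had 66 reads in AFT024 cells against 0 in BFC012 cells, and its receptor Met had 82.6 RPM in AFT024 cells against 214 RPM in BFC012 cells. Met was thus read in both lines, and 2.52-fold lower in AFT024 cells. Mst1r, a receptor of the Met family, had 0.229 RPM in AFT024 cells against 22.5 RPM in BFC012 cells. Erbb3, a neuregulin receptor, had 0.584 RPM in AFT024 cells against 36.6 RPM in BFC012 cells, while its partner Erbb2 was level at 74.9 RPM in AFT024 and 71.9 RPM in BFC012.

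The insulin-like growth factor binding proteins went both ways. Of 21 kept genes of the IGF axis 6 were higher and 7 lower, and of the 16 with at least 1 RPM in both lines 6 were higher and 2 lower. Igfbp6 had 94.96 RPM in AFT024 cells against 2.73 RPM in BFC012 cells, and Igfbp7 had 192 RPM in AFT024 and 6.41 RPM in BFC012. Igfbp2 had 0.0254 RPM in AFT024 cells against 24.9 RPM in BFC012 cells, and Igfbp4 had 31.9 RPM in AFT024 and 246 RPM in BFC012. Igfbp6 and Igfbp7 were therefore higher in AFT024 cells, and Igfbp2 and Igfbp4 lower.

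The Wnt genes included receptors and R-spondins, secreted amplifiers of Wnt signalling, that differed in both directions. Of 62 listed, 35 were kept, 14 higher and 7 lower. Among the 21 with at least 1 RPM in both lines 4 were higher and 4 lower, so the excess of higher genes came from genes at under 1 RPM in one line. Ror2, a Wnt5a receptor, had 1545 reads in AFT024 cells against 0 in BFC012 cells, 482-fold higher at the floor. Its relative Ror1 had 19 reads in AFT024 cells against 1742 in BFC012 cells. Rspo2 had 227 reads in AFT024 cells against 1 in BFC012 cells, and Rspo3 had 2 in AFT024 and 69 in BFC012. In each of these gene pairs one member was read mainly in AFT024 cells and the other mainly in BFC012 cells. The co-receptor Lrp6 had 138 RPM in AFT024 cells against 251 RPM in BFC012 cells and stayed within 2-fold.

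BMP and TGF-beta genes had 36 kept of 54, 11 higher and 7 lower. Eng, the TGF-beta co-receptor endoglin, had 2.56 RPM in AFT024 cells against 45.2 RPM in BFC012 cells. Bmp4, chosen after its values were seen, had 20.1 RPM in AFT024 cells against 197 RPM in BFC012 cells. Gdf15, a stress-induced member of the family, had 166 reads in AFT024 cells against 0 in BFC012 cells.

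Notch genes had 20 kept, 3 higher and 3 lower. Notch3, a receptor of mural cells, had 36.2 RPM in AFT024 cells against 3.65 RPM in BFC012 cells, and the ligand Jag2 had 1.17 RPM in AFT024 and 5.05 RPM in BFC012. Hedgehog pathway genes had 13 kept, 2 higher and 0 lower. Among them Hhip, which binds hedgehog ligands, had 79 reads in AFT024 cells against 0 in BFC012 cells, and the signal transducer Smo had 157 RPM in AFT024 cells against 289 RPM in BFC012 cells.

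Of 15 kept ephrin and Eph receptor genes 1 was higher and 6 lower, with a median log2 ratio of −0.61, and all 15 had at least 1 RPM in both lines. Epha4 had 14.8 RPM in AFT024 cells against 61.6 RPM in BFC012 cells, and the ligand Efnb2 had 72.6 RPM in AFT024 and 179 RPM in BFC012. Semaphorin, plexin, netrin and slit genes had 35 kept, 10 higher and 11 lower. Slit3, a Robo ligand chosen after its values were seen, had 8.45 RPM in AFT024 cells against 276 RPM in BFC012 cells, and Sema3c, chosen likewise, had 59.4 RPM in AFT024 and 518 RPM in BFC012. Sema5a, by contrast, had 7.52 RPM in AFT024 cells against 0.0836 RPM in BFC012 cells.

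Of 44 listed chemokines and atypical receptors, 42 were found in the table and 14 were kept, 10 higher and 2 lower. Among the 7 with at least 1 RPM in both lines, 4 were higher and 1 lower. Cxcl12, the chemokine that retains HSPC in their niche, had the most reads of the list and was lower, at 1863.5 RPM in AFT024 cells against 4707.8 RPM in BFC012 cells, a ratio of 0.407. Cxcl5 and Cxcl1, neutrophil attractants, had 62.4 and 12.9 RPM in AFT024 cells against 0.112 and 0.251 RPM in BFC012 cells. Ptx3, a soluble pattern recognition protein, had 322.1 RPM in AFT024 cells against 48.8 RPM in BFC012 cells. Of 34 kept cytokine receptor and gp130 family genes 12 were higher and 5 lower. Il1rl1, the receptor for interleukin 33, had 200 RPM in AFT024 cells against 2.68 RPM in BFC012 cells, and its ligand Il33 had 0.305 RPM in AFT024 and 15.4 RPM in BFC012. Receptor and ligand of this pair were thus read mainly in opposite lines. Csf1 and Il6st, the gp130 subunit, were level, with Csf1 at 650 RPM in AFT024 cells against 494 RPM in BFC012 cells.

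G protein-coupled receptors and their regulators had 23 higher and 3 lower among 45 kept of 64, with a median log2 ratio of 1.14. Only 27 of the 45 had at least 1 RPM in both lines, and of those 5 were higher and 3 lower, so the count came mostly from genes at under 1 RPM in one line. S1pr3, a sphingosine 1-phosphate receptor, had 2523 reads in AFT024 cells against 0 in BFC012 cells, 787-fold higher at the floor. Rgs17, a regulator of G protein signalling, had 832 reads in AFT024 cells against 0 in BFC012 cells. Gpr39, a zinc-sensing receptor, had 4.98 RPM in AFT024 cells against 57.5 RPM in BFC012 cells, and the peptide endothelin Edn1 had 2.31 RPM in AFT024 and 23.5 RPM in BFC012.

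Metabolic genes differed at a few members. Glul, glutamine synthetase, had 1910 reads in AFT024 cells against 0 in BFC012 cells, 596-fold higher at the floor. Slc7a2, a cationic amino acid transporter, had 35 reads in AFT024 cells against 10608 in BFC012 cells, 324-fold lower. Of 43 kept amino acid transport and synthesis genes 9 were higher and 3 lower. Lpl, lipoprotein lipase, had 153 RPM in AFT024 cells against 0.920 RPM in BFC012 cells, and Pdk4, a pyruvate dehydrogenase kinase, had 72.4 RPM in AFT024 and 1.06 RPM in BFC012. Mt2, metallothionein 2, had 21.2 RPM in AFT024 cells against 1.53 RPM in BFC012 cells. Abcg1, a cholesterol exporter, had 5.97 RPM in AFT024 cells against 0.0558 RPM in BFC012 cells, in a list of 30 kept cholesterol genes of which 1 was higher and 2 lower. Ptgs2, the inducible prostaglandin synthase, had 94.1 RPM in AFT024 cells against 20.9 RPM in BFC012 cells. Among 17 kept eicosanoid genes 5 were higher and 0 lower.

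Replication genes were close between the lines. All 49 replication and DNA repair genes were kept and all lay within 2-fold, their log2 ratios between −0.60 and 0.98. Top2a, topoisomerase II of dividing cells, had 897 RPM in AFT024 cells against 960 RPM in BFC012 cells. Cyclin, CDK inhibitor and RB family genes had 31 kept, 2 higher and 4 lower, shares of 6.45% and 12.9% against 10.9% and 8.4% of all kept genes. Ccnd2, cyclin D2, had 349 RPM in AFT024 cells against 1081 RPM in BFC012 cells, and Cdkn1c, the inhibitor p57, had 418 reads in AFT024 cells against 0 in BFC012 cells. Hmga2, an oncofetal chromatin protein, had 516 RPM in AFT024 cells against 90.8 RPM in BFC012 cells. Dnmt1, the maintenance methyltransferase, was level at 489 RPM in AFT024 and 481 RPM in BFC012.

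The lines differed along the genome as well as by gene. On chromosome 15, 497 genes were kept and their median log2 ratio was 0.69 (quartiles 0.34 and 1.18), with 87.5% above 0. Of these, 152 were higher (30.6%) and 21 lower (4.23%). The shift held at every level of expression, with 75.8% above 0 among kept genes under 10 mean RPM, 87.6% at 10 to 100 and 96.3% above 100. All 7 bins of 10 Mb with at least 20 kept genes had medians above 0, between 0.51 and 1.21. The HoxC cluster lies on this chromosome, and so do Itga5 and Rspo2. The cause of the shift was not tested.

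Other chromosomes moved less. Chromosome 18 had a median of −0.35 with 21.5% of 325 genes above 0, chromosome 8 of −0.30, chromosome 13 of 0.31 and chromosome 3 of 0.27. Chromosome 3 was split, with bin medians of 0.42 to 0.58 from 30 to 100 Mb and of −0.31 to −0.15 from 100 to 160 Mb. In exosomes the median was 0.54 for chromosome 15 and −0.32 for chromosome 18, and for chromosome 8 it was −0.11. The lowest of 217 such bins was chromosome 4 from 80 to 90 Mb, at −0.81 over 33 genes and −0.88 in exosomes. On chromosome X, Xist, the RNA that coats the inactive X chromosome, had 1094 RPM in AFT024 cells against 0.474 RPM in BFC012 cells, while 397 kept X genes had a median of 0.19. The X-linked helicase Ddx3x was level, at 562 RPM in AFT024 cells against 548 RPM in BFC012 cells, and the Y-linked genes Kdm5d, Uty, Ddx3y and Eif2s3y had 0 reads in both lines.

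**Figure D4:**
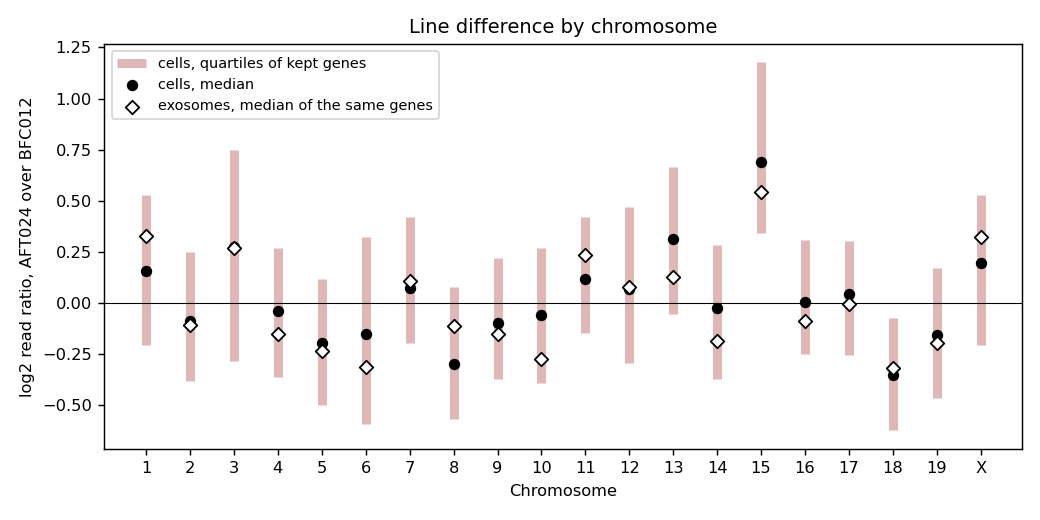
Median log2 ratio of AFT024 over BFC012 for the kept genes of each chromosome (dots for cells, with bars from the lower to the upper quartile, and diamonds for exosomes), 1 merged value per line. Chromosome 15 stands apart at 0.69 in cells and 0.54 in exosomes, and chromosome 18 is lowest at −0.35 and −0.32.

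The line difference was also present in the exosomes, which are other samples of the same lines. Of the 1369 genes higher in AFT024 cells, 1156 were kept in exosomes and 822 of these (71.1%) were also higher there, where 17.2% of all kept genes were higher, and 16 went the opposite way by at least 2-fold. Of the 1051 lower genes, 884 were kept in exosomes and 639 (72.3%) were also lower, where 13.2% of all kept genes were lower, and 16 went the opposite way. Among 190 named genes past 2-fold in cells and with at least 20 exosome reads, 185 were on the same side in exosomes. Lrrc32 had 710 exosome reads for AFT024 and 2 for BFC012, and Tbx20 had 3 for AFT024 and 1562 for BFC012. The exosome libraries were smaller, at 9038471 reads for AFT024 and 16344350 for BFC012, and their RNA was pooled and then split into technical replicates.

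**Figure D5:**
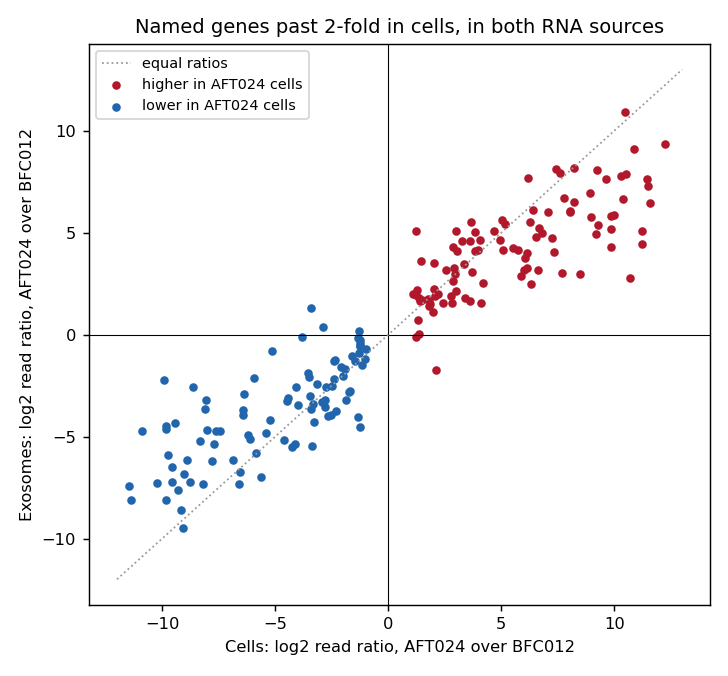
Log2 ratio of AFT024 over BFC012 in exosomes (vertical axis) against cells (horizontal axis) for 190 named genes past 2-fold in cells with at least 20 exosome reads, 1 point per gene. Of these, 185 lie on the same side of 0 in both and 5 on the other side.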

How the data were processed

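PolyA RNA of AFT024 and BFC012 cells was sequenced on an Illumina HiSeq2500, per the series' design text. Per the submitters' processing notes, TopHat, Cufflinks and Bowtie were used with build mm10. The roles and versions of these tools, the annotation release and the counting rule were not given in the sources used here. Merged normalized reads for each line were deposited by the authors, with decimal commas, together with an FPKM table of cells and exosomes. Small RNA values are the authors' normalized signal per arm in a deposited table. The fold changes and p-values in the authors' deposited tables were not used.

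Each column was divided by its smallest positive value, which gave whole reads within 0.01 for 100.0% of polyA values. Small RNA values were divided likewise and rounded to whole reads, without this check. Genes with at least 1 RPM in either line were kept, and ratios were scaled by the median of ratios over 11255 genes, with a floor of 3 reads for 0; microRNA ratios were scaled likewise within the small RNA table. Intervals are exact Clopper-Pearson. Rules, lists and members were chosen with earlier results of these data known. Named genes were the 15 highest and 15 lowest ratios at 10 RPM or more in the higher line, and at most 6 per list: up to 2 highest and 2 lowest past 2-fold and up to 2 with the most reads. Some of these genes are not reported here. Exceptions are marked as chosen after their values were seen. Hox genes, markers and microRNAs were shown by cluster, list or region. The calls were tried on simulated Poisson counts with 12222 kept genes, which hold counting error only. All 200 genes changed 4-fold or 16-fold, well past the 2-fold limit, were called, and 0.0416% of unchanged genes were. With no culture or library variation simulated, this cannot give the rate of false calls in the real columns. Coordinates are from GENCODE M21 on GRCm38, the assembly of mm10. Of the table's genes, 97.3% were placed there. The FPKM table has no unique row for 881 kept genes and lists 267 at 0 FPKM despite 20 or more reads, so reads were used for ratios. Python 3.11.15, numpy 2.4.6, pandas 2.3.3, scipy 1.17.1 and matplotlib 3.10.9 were used.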

Additional observations from a re-analysis of the deposited data

Results flagged for a closer look

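A pair of named genes went opposite ways by at least 2-fold in cells and in exosomes. Dlx3, a homeobox gene of skin and placenta, had 13 reads in AFT024 cells against 132 in BFC012 cells, a ratio of 0.0921, but 25 reads in AFT024 exosomes and 19 in BFC012 exosomes, a ratio of 2.45. Scube3, a secreted hedgehog and BMP co-factor, had 128 reads in AFT024 cells against 28 in BFC012 cells, a ratio of 4.28, but 7 reads in AFT024 exosomes and 44 in BFC012 exosomes, a ratio of 0.296. With 1 merged value per group the difference between cells and exosomes was not tested. These are low counts.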

How the results depend on the processing

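No paired analysis was possible because each line has 1 merged column, and for the same reason no replicate could be left out. Genes at least 2-fold higher numbered 1369 and lower 1051. A 4-fold limit gave 709 and 521, and a 1.5-fold limit 2325 and 1897. The lower count was 641 where genes were kept at 5 RPM and 1638 where they were kept at 10 reads in both lines together, since the filter sets how many genes are compared. Under the other settings (RPM, upper-quartile scaling, 1 RPM added, FPKM plus 1 or 0.1, the whole interval past 2-fold, and for the higher count both filters) the higher count ran between 936 and 2041 and the lower between 788 and 1145. The chromosome 15 median was 0.53 with FPKM plus 1 against 0.69. The chromosome 12 median was −0.0054 with FPKM plus 1 against 0.07, a change of sign whose cause was not tested. Of 1650 recomputed ratios of 336 named genes, 643 moved outside their counting interval. A change of direction was counted only for genes past 2-fold, where there were 0. Fgf7, within 2-fold, was slightly higher in AFT024 cells by reads. By FPKM it was lower, at 60.3 in AFT024 cells against 74.7 in BFC012 cells. The median of all kept genes moved by 0.04 at most. Lists with more members higher than lower numbered 32 to 38 of 57, and with more lower 14 to 17. The deposited merging hides culture to culture spread, so a difference near 2-fold has no error beyond counting.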
